A study of Homo sapiens with 2 samples.

Results

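The matrix metalloproteinases (MMP), the ADAM and ADAMTS proteases, the ADAMTS-like proteins (ADAMTSL) and their inhibitors, the TIMPs, were described in a human breast cell line with and without knockdown of YBX1. Members were all genes of either deposited table whose symbol is one of these family names followed by a number, which gave 34 genes of the 13219 listed in at least 1 table. Levels are in FPKM, which scales the fragments of a gene to its transcript length and to the depth of the library. Of the 34 genes, 25 were in both tables, and 21 of these had a mean of at least 1 FPKM over both libraries, the minimum set for a comparison. These 21 are the compared members.

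In the siYBX1 group YBX1 was knocked down by transfection; one label names an siRNA for this and another text a Smart Silencer. The siNC group has no further description and is taken here as the control transfection. Both groups were cells labelled 231 from breast, grown in L15 medium with serum, and the samples were taken after 48 h; the name often stands for MDA-MB-231, a line of invasive breast cancer cells. Each group was 1 library of total RNA, so no value has a replicate error, no test between groups was possible, and each difference describes 1 pair of libraries. YBX1, which encodes the DNA- and RNA-binding cold shock protein YB-1, had 38.1 FPKM in siYBX1 and 649 FPKM in siNC, a 17.0-fold lower level.

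The tables hold FPKM without counts, so depth is unknown. Of the markers of such a line, VIM, CD44, AXL, MSN, CAV1, KRT8 and KRT18 were listed in both libraries, with a summed level of 1030 FPKM in siYBX1 and 881 FPKM in siNC, while of 6 markers low in such a line ESR1 and PGR were in neither table. The others of these 6 were EPCAM, at 5.10 FPKM in siYBX1 and 8.22 FPKM in siNC, GATA3, at 2.14 and 2.34 FPKM, ERBB3, at 1.29 and 0.935 FPKM, and CDH1, listed in siNC only at 0.0668 FPKM. KRT8 was the one of these 7 past 2-fold, at 27.7 FPKM in siYBX1 against 74.7 FPKM in siNC. Fibroblasts also make many of these proteins; of 7 fibroblast markers PDGFRB and COL1A1 were listed, with a sum of 5.88 FPKM in siYBX1 and 1.21 FPKM in siNC, and DCN, LUM, THY1, PDGFRA and COL3A1 were in neither table. Of 5 leukocyte markers 2 were listed in siYBX1 and 3 in siNC, with sums of 18.1 and 41.8 FPKM that were mostly CD68, and PTPRC and CD3E were in neither table. Of 8 hepatocyte markers 1 was listed in siYBX1 and 7 in siNC, with sums of 39.96 and 53.2 FPKM. The siYBX1 sum was SERPINA1 alone, which was at 17.0 FPKM in siNC, while ALB, APOA1, APOA2, APOB, FGB and AHSG were listed in siNC only, at 0.729 to 12.0 FPKM, and TTR was in neither table. Of 3 endothelial markers KDR alone was listed, in siNC only, at 0.645 FPKM. The part of these cell types in the differences was not tested. In bulk RNA, fewer cells of a type and less RNA per cell cannot be told apart.

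As background, MMPs and ADAMTS proteases mostly cut the extracellular matrix, and ADAMs mostly release the outer parts of membrane proteins, a step called shedding. The active enzymes use a zinc ion, and most are made with a prodomain that keeps them inactive until it is removed. TIMPs bind the active site and block it, and the balance of enzymes and TIMPs is a classical subject in breast cancer invasion. Transcript levels do not show how much active enzyme is present.

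Among the 21 compared members, 5 were at least 2-fold higher in siYBX1 on the log2(FPKM + 1) scale and 0 were at least 2-fold lower. The 5 were the secreted protease ADAMTS9, the membrane proteases ADAM19 and ADAM15, the collagenase MMP1 and the inhibitor TIMP2. That is 23.8% of the compared members, beside 7.20% of all 10548 compared genes higher and 5.62% lower. The median difference, siYBX1 minus siNC in log2(FPKM + 1), was 0.44 for the members and 0.02 for all compared genes. In all, 12 members had a difference above 0 and 9 below 0. That is 57.1% above 0, near the 51% of all compared genes. Differences left a gap around the 2-fold line, from 1.50 for TIMP2 to 0.78 for TIMP1, the next one down. On the low side ADAMTSL4 came nearest to it, at -0.78.

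The scale between the libraries matters for small differences. As deposited, 759 of all compared genes were higher and 593 lower; with both libraries brought to the same summed FPKM, 570 were higher and 822 lower, and the median of all genes was -0.11. The same 5 members were the ones past 2-fold on that scale too, since their differences there were 1.36 or more.

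**Figure D1:**
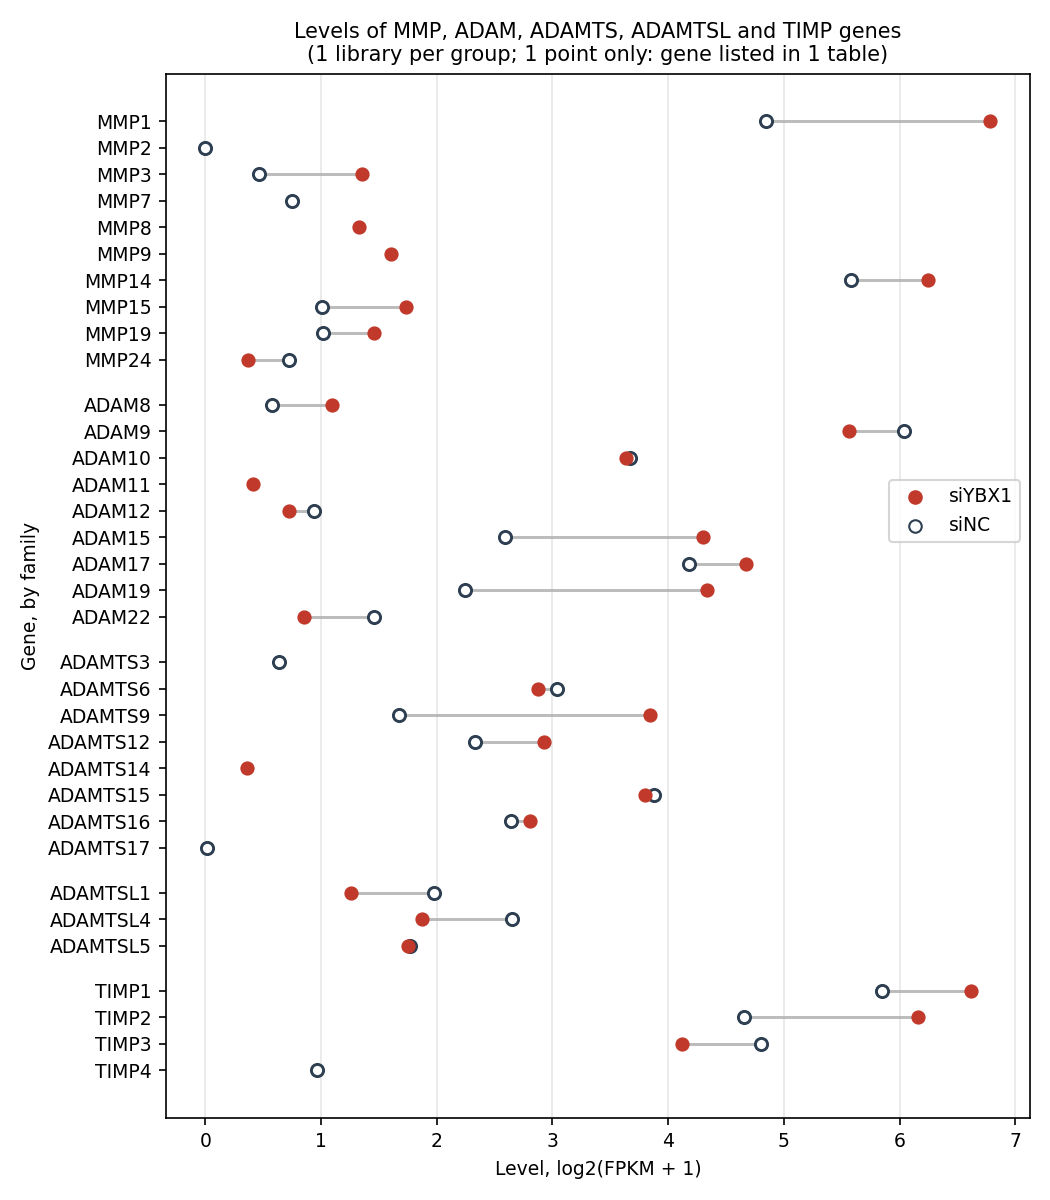
Level of every listed member, as log2(FPKM + 1), in the siYBX1 library (filled red points) and the siNC library (open points), 1 library per group and no error bars. A gene with a single point was listed in 1 table only, and the widest gaps are those of ADAMTS9, ADAM19, MMP1, ADAM15 and TIMP2, all with siYBX1 on the right.

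The plot of levels shows that most members sat low and a few carried most of the signal. In siYBX1 the highest levels were those of MMP1, TIMP1, MMP14 and TIMP2, and in siNC those of ADAM9, TIMP1, MMP14 and MMP1. Summed over all 34 genes, the levels came to 553 FPKM in siYBX1 and 336 FPKM in siNC, a ratio of 1.64, while the summed FPKM of the whole tables were 222872 and 201233. MMP1 alone made up 19.8% of the member sum in siYBX1 and 8.27% in siNC, and ADAM9 8.37% in siYBX1 and 19.3% in siNC.

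Stretches before the annotated start of 4 members are shown, because YB-1 was first described as a protein that binds the Y-box, an inverted CCAAT sequence in promoters. ADAM19 is shown as the member with the second largest difference, and ADAMTSL1 as the member with the full Y-box letters. MMP14 and TIMP3 are an enzyme and an inhibitor that both hold an inverted CCAAT box and had differences of opposite sign. Neither MMP14 (0.66) nor TIMP3 (-0.69) reached 2-fold, and they were chosen with their values known. Whether such letters go with the differences was not tested. Sequences are those of RefSeq on GRCh38.p14, on the strand of the gene, with capitals marking CCAAT boxes (ATTGG where read on the other strand) and GC boxes in MMP14 and TIMP3 and the Y-box in ADAMTSL1. The ADAM19 stretch held none of the letters searched. The ADAMTSL1 stretch also lies in an annotated exon of another transcript of that gene, and its Y-box spans bases 134 to 127 before the start.
ADAM19, chr5:157575826-157576025, minus strand, 250 to 51 bases before the start: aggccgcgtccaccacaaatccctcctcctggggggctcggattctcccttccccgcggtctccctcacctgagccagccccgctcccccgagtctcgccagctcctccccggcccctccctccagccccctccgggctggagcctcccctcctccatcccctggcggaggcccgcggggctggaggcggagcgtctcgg
MMP14, chr14:22836335-22836534, plus strand, 250 to 51 bases before the start: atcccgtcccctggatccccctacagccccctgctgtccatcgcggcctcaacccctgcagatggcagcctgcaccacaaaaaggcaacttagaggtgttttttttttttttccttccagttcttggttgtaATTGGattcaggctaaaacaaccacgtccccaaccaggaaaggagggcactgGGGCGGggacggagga
TIMP3, chr22:32801455-32801654, plus strand, 250 to 51 bases before the start: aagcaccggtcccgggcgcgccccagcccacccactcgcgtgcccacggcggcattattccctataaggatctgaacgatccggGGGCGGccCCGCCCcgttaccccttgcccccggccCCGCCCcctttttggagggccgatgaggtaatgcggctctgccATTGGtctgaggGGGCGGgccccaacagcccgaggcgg
ADAMTSL1, chr9:18474009-18474038, plus strand: tagcaggagcCTGATTGGctggctgcctgc

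Of the 34 members, 23 had a promoter in the table used. Of the 5 higher members these were ADAM15 and ADAM19, and ADAMTS9, MMP1 and TIMP2 were not searched. In the 250 bases before the start, on either strand, the Y-box CTGATTGG was found in 1 of the 23 (ADAMTSL1) and in 3.98% of 27305 promoters. CCAAT, whose reverse complement is part of that Y-box, was found in 10 of the 23 and in 33.0% of all promoters. The GC box GGGCGG was in 18 of the 23 and in 42.3%, and the AP-1 letters TGAGTCA were in 1 (MMP7) and in 4.16%. ADAM19 held none of these letters and ADAM15 held GC boxes only. The 27305 promoters were not limited to the 13219 genes listed in at least 1 table, whereas the 23 all belong to listed genes. The shares are therefore not from matched sets, and whether these letters are more frequent in the members than in like genes was not tested. A match describes letters, not a bound site, and no match says only that these letters are not in this window.

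Among the MMPs, 4 of 10 listed genes were compared, and all 4 had a difference above 0, with 1 past 2-fold. Of all compared genes, 51% were above 0. MMP1 (ENSG00000196611.4_2), the collagenase that opens fibrillar collagens, stood at 109 FPKM in siYBX1 and 27.8 FPKM in siNC, 3.93-fold higher. Its difference of 1.94 had rank 64 among all compared genes, and its level had rank 225 in the siYBX1 table and rank 1358 in the siNC table. It was the highest member in siYBX1 and the fourth in siNC.

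MMP14 (ENSG00000157227.12_2), the membrane-anchored MT1-MMP that cuts collagen at the cell surface and activates MMP2, stood at 74.8 FPKM in siYBX1 and 46.9 FPKM in siNC, a difference of 0.66 that did not reach 2-fold. MMP15, the membrane-anchored MT2-MMP, was at 2.33 FPKM in siYBX1 and 1.01 FPKM in siNC. Its ratio was 2.31, but its difference was 0.73, because the added 1 FPKM shrinks the differences of low genes. MMP19, a secreted member, was at 1.75 FPKM in siYBX1 and 1.03 FPKM in siNC (difference 0.44). The order of the MMP levels thus turned between the libraries, with MMP1 above MMP14 in siYBX1 and MMP14 above MMP1 in siNC.

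The other MMPs were low or in 1 table. MMP3, the stromelysin that neighbours MMP1 on chromosome 11, was at 1.56 FPKM in siYBX1 and 0.376 FPKM in siNC, a ratio of 4.16 just under the minimum mean. MMP24, a membrane-anchored member, was at 0.291 FPKM in siYBX1 and 0.652 FPKM in siNC, and its value is uncertain because 799 of its exonic bases overlap MMP24OS on the opposite strand, which was at 16.4 FPKM in siYBX1 and 21.3 FPKM in siNC. No source used here says whether the authors' counting used strand.

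The gelatinase MMP9 and the neutrophil collagenase MMP8 were listed in siYBX1 only, at 2.05 and 1.52 FPKM. These levels were high for genes of that kind: of the 202 genes listed in siYBX1 only, with a median of 0.676 FPKM, 15 reached the level of MMP9 and 24 that of MMP8. The matrilysin MMP7 was listed in siNC only, at 0.679 FPKM, and the gelatinase MMP2 in siNC only, at 0. MMP14 was thus among the highest members in both libraries, while MMP2, the enzyme it is best known for activating, was not listed above 0 in either.

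Of the MMP cluster on chromosome 11, which holds MMP7, MMP20, MMP27, MMP8, MMP10, MMP1, MMP3, MMP12 and MMP13 in this order in RefSeq, 4 genes were listed. MMP1 and MMP3 had the higher value in siYBX1 and MMP8 was listed there only, whereas MMP7, at one end, was listed in siNC only. MMP10, MMP12, MMP13, MMP20 and MMP27 were in neither table.

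Among the ADAMs, 6 of 9 listed genes were compared, 2 were at least 2-fold higher in siYBX1, and the rest lay on both sides of 0. ADAM19 (ENSG00000135074.15_3), also called meltrin beta and known to process neuregulin, stood at 19.2 FPKM in siYBX1 and 3.73 FPKM in siNC, 5.15-fold higher. Its difference of 2.10 had rank 49 of all compared genes. ADAM15 (ENSG00000143537.13_3), whose disintegrin domain binds integrins, stood at 18.7 FPKM in siYBX1 and 5.02 FPKM in siNC, 3.73-fold higher (difference 1.71, rank 124).

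The best known sheddases did not reach 2-fold. ADAM17, which releases TNF and several ligands of the EGF receptor, was at 24.6 FPKM in siYBX1 and 17.2 FPKM in siNC (difference 0.49). In the annotation 1323 of its exonic bases overlap IAH1 on the opposite strand, which was at 3.47 and 2.88 FPKM. ADAM10, which cuts Notch receptors and the amyloid precursor protein, was at 11.4 FPKM in siYBX1 and 11.7 FPKM in siNC, the smallest difference of the compared ADAMs at -0.03. With the trend of length and GC content removed it was 0.34, so its sign differed between settings. ADAM9, another membrane sheddase, was the highest ADAM in both libraries, at 46.3 FPKM in siYBX1 and 64.9 FPKM in siNC (difference -0.48).

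ADAM22, which lacks protease activity and acts as a receptor in neurons, was at 0.807 FPKM in siYBX1 and 1.75 FPKM in siNC (difference -0.60). The low members were ADAM8, a protease known from leukocytes, at 1.14 FPKM in siYBX1 and 0.487 FPKM in siNC, and ADAM12, also called meltrin alpha, at 0.652 and 0.924 FPKM. ADAM11, another member without protease activity, was listed in siYBX1 only, at 0.334 FPKM. The levels of ADAM9, ADAM15, ADAM17 and ADAM19 lay closer together in siYBX1: ADAM9 held 37.6% of the summed ADAM FPKM there, against 61.4% in siNC.

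**Figure D2:**
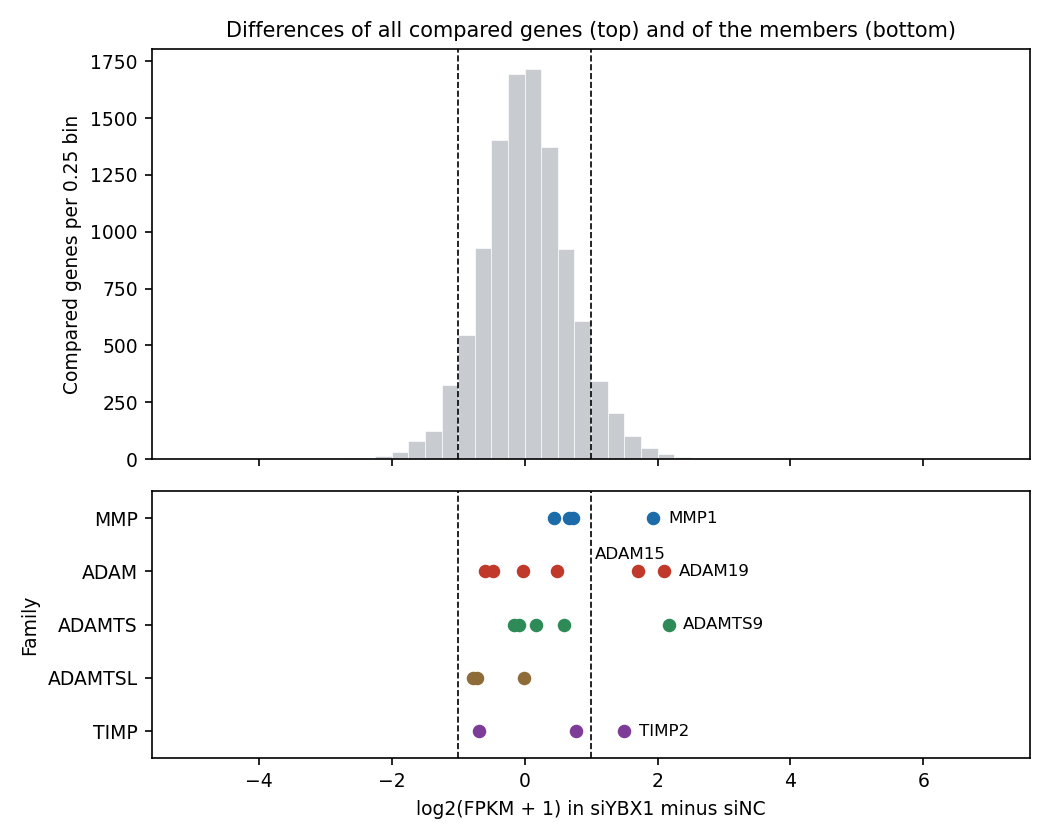
Top, number of all 10548 compared genes per bin of the difference in log2(FPKM + 1), siYBX1 minus siNC; bottom, the 21 compared members on the same axis, 1 point per gene and 1 row per family, with dashed lines at 2-fold. MMP1, ADAM15, ADAM19, ADAMTS9 and TIMP2 lie beyond the right line and no member lies beyond the left one.

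The histogram of all differences places the called members well out in its right tail, with ranks of 44, 49, 64, 124 and 213 among 10548 genes. They came from 4 of the 5 families, with 2 in the ADAM family and 1 each in the MMP, ADAMTS and TIMP families.

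Among the ADAMTS proteases, 5 of 8 listed genes were compared, and 1 was past 2-fold. ADAMTS9 (ENSG00000163638.13_2), which cuts the matrix proteoglycans versican and aggrecan, stood at 13.3 FPKM in siYBX1 and 2.19 FPKM in siNC, 6.08-fold higher. Its difference of 2.17 was the largest of the compared members and had rank 44 of all compared genes. ADAMTS12, which cuts the cartilage protein COMP, was at 6.62 FPKM in siYBX1 and 4.04 FPKM in siNC (difference 0.60).

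The other 3 differed little. ADAMTS15, also a proteoglycan-cutting enzyme, was at 12.9 FPKM in siYBX1 and 13.7 FPKM in siNC (difference -0.08). ADAMTS16 was at 6.01 FPKM in siYBX1 and 5.24 FPKM in siNC (0.17), and ADAMTS6 at 6.32 and 7.21 FPKM (-0.17, and 0.03 with the length and GC trend removed). In siNC ADAMTS9 was the lowest of these 5 genes, and in siYBX1 it was the highest. ADAMTS14, a procollagen N-proteinase, was listed in siYBX1 only, at 0.286 FPKM, and its relative ADAMTS3 in siNC only, at 0.559 FPKM. ADAMTS17 was listed in siNC only, at 0.011 FPKM.

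The 3 ADAMTS-like genes encode matrix proteins without a protease domain. None of them had a difference above 0, beside 51% of all compared genes above 0. ADAMTSL4, a fibrillin-binding protein, stood at 2.66 FPKM in siYBX1 and 5.28 FPKM in siNC (-0.78). ADAMTSL1, the member with the Y-box shown above, was at 1.39 FPKM in siYBX1 and 2.94 FPKM in siNC (-0.72), and ADAMTSL5 at 2.37 and 2.41 FPKM (-0.02). None reached 2-fold on this scale, though the ratios of siNC over siYBX1 were 1.98 for ADAMTSL4 and 2.11 for ADAMTSL1. With a pseudocount of 0.1 in place of 1, ADAMTSL1 (-1.02) and ADAM22 (-1.02) would count as lower. ADAM22 was under 1 FPKM in siYBX1 and passed the minimum mean only through siNC.

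The TIMPs differed in both directions. TIMP2 (ENSG00000035862.12_3), which inhibits MMPs and can also dock pro-MMP2 onto MMP14, stood at 70.4 FPKM in siYBX1 and 24.3 FPKM in siNC, 2.90-fold higher (difference 1.50, rank 213). It overlaps CEP295NL by 198 exonic bases on the same strand, which was listed in siNC only, at 0.518 FPKM. TIMP1, which blocks most secreted MMPs but MMP14 only weakly, was the highest TIMP in both libraries, at 97.4 FPKM in siYBX1 and 56.5 FPKM in siNC (0.78).

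TIMP3, the matrix-bound inhibitor that also blocks ADAM17, was at 16.3 FPKM in siYBX1 and 26.9 FPKM in siNC (-0.69), the one compared TIMP below 0. TIMP4 was listed in siNC only, at 0.953 FPKM. TIMP2 thus stood above TIMP3 in siYBX1 and just below it in siNC, and its share of the summed TIMP FPKM was 38.2% in siYBX1 and 22.3% in siNC. The share of TIMP3 was 8.87% in siYBX1 and 24.8% in siNC.

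Ratios of FPKM within a library do not depend on the scale between libraries. They do carry the trend of the differences with transcript length, described below, where an enzyme and an inhibitor differ in length. MMP1 over TIMP1 was 1.12 in siYBX1 and 0.492 in siNC. MMP14 over TIMP2 went the other way, at 1.06 in siYBX1 and 1.93 in siNC. Against TIMP3 the ratios were higher in siYBX1: 4.58 against 1.74 for MMP14, 1.50 against 0.638 for ADAM17 and 0.700 against 0.435 for ADAM10. ADAM10 over TIMP1 was 0.117 in siYBX1 and 0.207 in siNC.

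**Figure D3:**
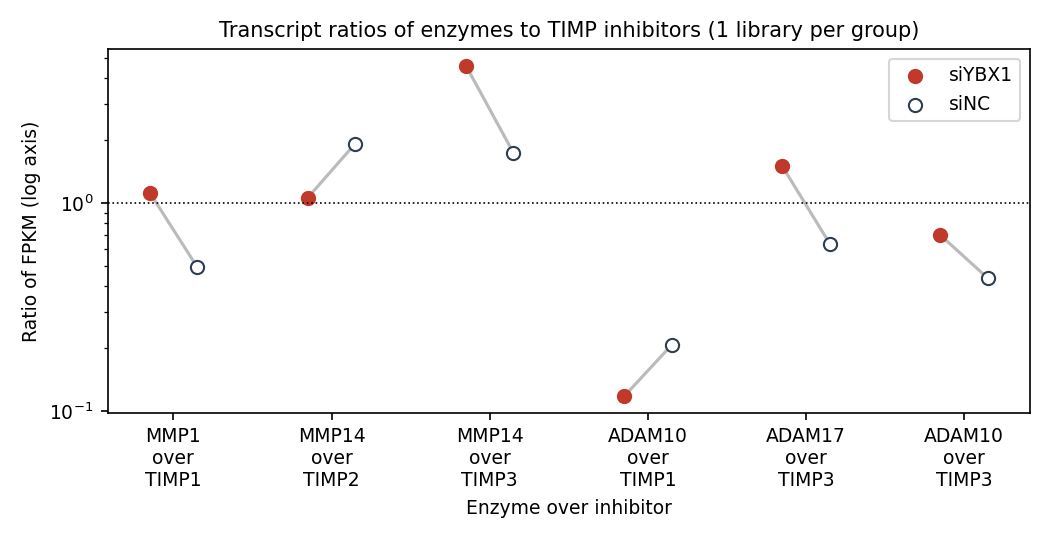
Ratio of the FPKM of an enzyme to that of an inhibitor known to bind it, on a log axis, in siYBX1 (filled points, left) and siNC (open points, right), 1 library per group; the dotted line marks equal levels. MMP1 over TIMP1 and ADAM17 over TIMP3 lie above 1 in siYBX1 and below 1 in siNC.

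The plot of ratios shows that no single enzyme to inhibitor balance describes the pair of libraries. MMP1 over TIMP1 and the 3 ratios to TIMP3 were higher in siYBX1, and the ratios of MMP14 to TIMP2 and of ADAM10 to TIMP1 were lower. With the trend of length and GC content removed, the change of ADAM10 over TIMP1 between the libraries was 0.906-fold, against 0.572-fold without, both on the log2(FPKM + 1) scale. This ratio sets the longest compared transcript among the members against the shortest. On the same scale the change of MMP1 over TIMP1 was 2.68-fold with the trend removed and 2.24-fold without, and that of MMP14 over TIMP2 was 0.555-fold and 0.559-fold. The changes of the 3 ratios to TIMP3 were 2.02- to 2.40-fold with the trend removed and 1.58- to 2.54-fold without. These are transcript ratios and say nothing of protein amounts.

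Over all compared genes the difference varied with transcript length, and long transcripts tended to be lower in siYBX1. In 10 bins of length, the median difference of all genes was 0.22 in the shortest bin and -0.23 in the longest, and 17.6% and 2.01% of genes there were at least 2-fold higher. ADAMTS9, with a longest coding transcript of 7624 nt, lay in the longest bin, which also holds ADAM10, ADAM22, ADAMTS12 and ADAMTSL1, and ADAM19, with 6481 nt, in the one before it. With the trend of length and GC content removed, the difference of ADAMTS9 was 2.29, that of ADAM19 2.13, of MMP1 1.90, of ADAM15 1.60 and of TIMP2 1.43. TIMP1, at 1095 nt the shortest compared member, had a difference of 0.48 with the trend removed, against 0.78 without.

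**Figure D4:**
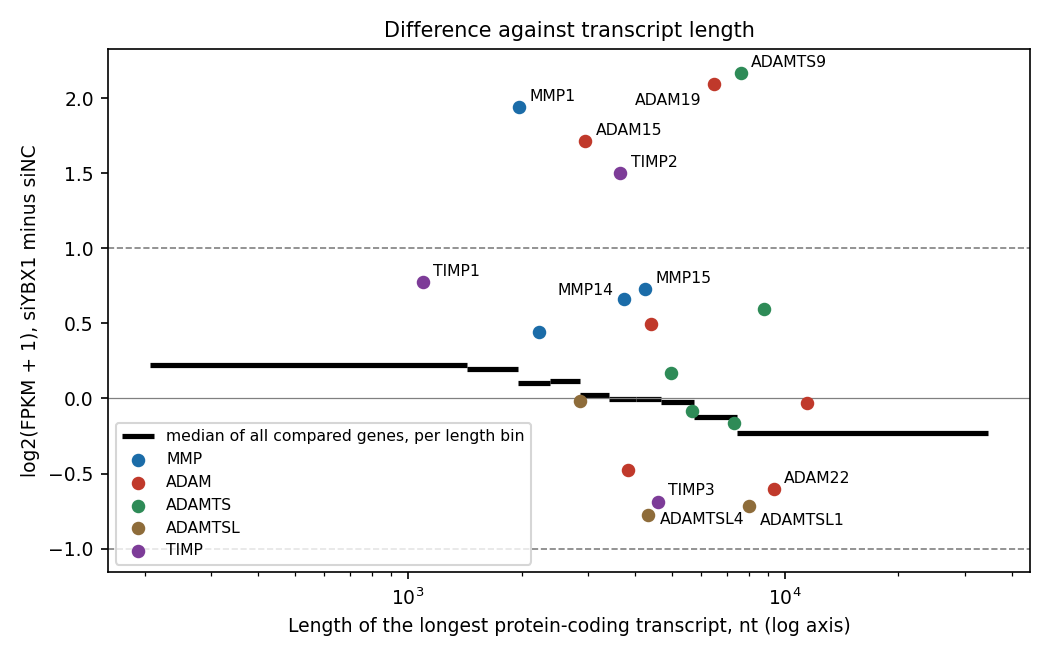
Difference in log2(FPKM + 1), siYBX1 minus siNC, against the length of the longest protein-coding transcript on a log axis, 1 point per compared member, with black bars for the median of all compared genes in each of 10 length bins. The bars fall with length, while ADAMTS9 and ADAM19 lie at 2.17 and 2.10 among the long transcripts.

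The share of higher genes also varied with level. Of the 4 members with a mean of 50 FPKM or more, ADAM9, MMP1, MMP14 and TIMP1, 1 was at least 2-fold higher, and 16.2% of all genes at that level were. Of the 3 members between 20 and 50 FPKM 1 was higher (TIMP2), beside 8.85% of all genes. Of the 8 members between 5 and 20 FPKM 3 were higher, beside 7.46% of all genes. Of the 6 members between 1 and 5 FPKM 0 were higher, beside 4.97% of all genes. From the highest level to the lowest, the median difference of all genes was 0.17, 0.02, 0.01 and 0.02. That of the members was 0.72, 0.49, 0.38 and -0.31.

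**Figure D5:**
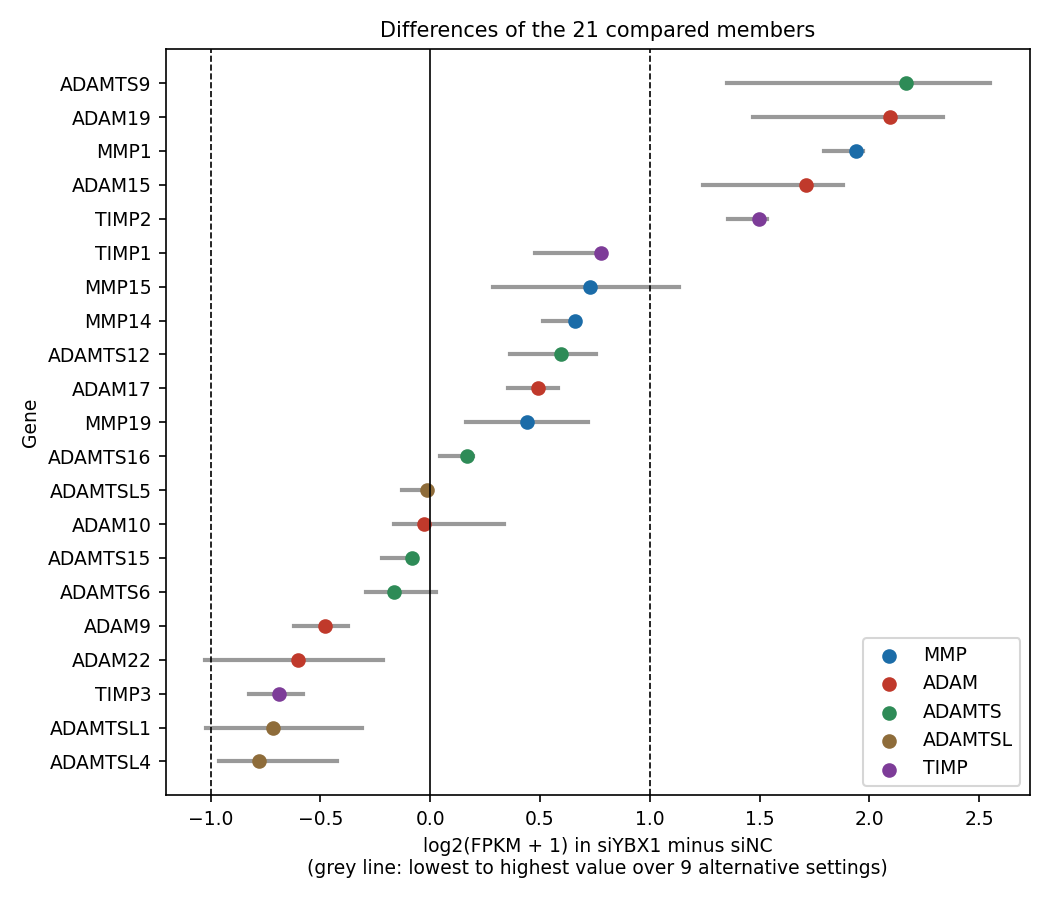
Difference in log2(FPKM + 1), siYBX1 minus siNC, for the 21 compared members in order (points, coloured by family), with grey lines for the lowest to highest value over 9 other settings of scale, pseudocount and filter; dashed lines mark 2-fold. The lines of ADAMTS9, ADAM19, MMP1, ADAM15 and TIMP2 stay right of the 2-fold line, and that of MMP15 crosses it.

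The plot of differences in order shows how far each value moved with the settings. ADAMTS9 ranged from 1.35 to 2.55, ADAM19 from 1.47 to 2.33, ADAM15 from 1.24 to 1.88, MMP1 from 1.79 to 1.97 and TIMP2 from 1.36 to 1.53. MMP15 ranged from 0.29 to 1.13. The sign of ADAM10 and of ADAMTS6 differed between settings, and the other 19 compared members kept theirs.

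Genes that act with these families were read from lists, each against the 7.20% of all compared genes that were higher and 5.62% lower. In other settings the share of all compared genes higher was 10.4% (pseudocount of 0.1), 2.98% (pseudocount of 5) and 5.40% (same summed FPKM). Of the convertases that remove prodomains, 2 of 4 were compared and 0 were past 2-fold. FURIN was at 27.7 FPKM in siYBX1 and 16.9 FPKM in siNC (0.68), and PCSK7 at 2.55 and 2.49 FPKM (0.02). Of the partners of membrane ADAMs, 10 of 11 were compared, 1 was higher and 0 were lower, and the median difference was 0.54. The higher one was SH3PXD2A, the invadopodium scaffold TKS5 that binds several ADAMs, at 8.12 FPKM in siYBX1 and 3.33 FPKM in siNC (1.07). With the same summed FPKM in both libraries its difference was 0.95, and 0 of this list were past 2-fold. RHBDF2, an iRhom that carries ADAM17 to the surface, was at 7.99 and 4.50 FPKM (0.71), the tetraspanin TSPAN33 at 3.39 and 1.81 FPKM (0.64) and FRMD8, which binds iRhoms, at 4.86 and 2.88 FPKM (0.60).

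Of the other inhibitors, inducers and uptake receptors, 6 of 8 were compared and 0 were past 2-fold, with a median of 0.39. BSG, which encodes the MMP inducer EMMPRIN, was at 61.1 FPKM in siYBX1 and 39.2 FPKM in siNC (0.63), PEBP1 at 162 and 110 FPKM (0.55), THBS1 at 176 and 132 FPKM (0.41) and TFPI2 at 17.7 and 13.4 FPKM (0.38). The membrane inhibitor RECK differed little, at 3.69 FPKM in siYBX1 and 3.89 FPKM in siNC (-0.06); it was named after its value was seen. The plasma inhibitor A2M, also named so, was listed in siNC only, at 4.32 FPKM. Liver makes it, and the part of the hepatocyte markers given above in its value was not tested.

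Of 30 proteins known to be shed by ADAM10 or ADAM17, 19 were compared. Of these, 3 (15.8%) were higher and 0 were lower, and the median difference was 0.28. The number higher was 7 with a pseudocount of 0.1, and 2 with the same summed FPKM, SDC4 and ICAM1. The syndecan SDC4 was at 166 FPKM in siYBX1 and 20.8 FPKM in siNC (2.94), the adhesion receptor ICAM1 at 124 and 26.7 FPKM (2.18), the TNF receptor TNFRSF1B at 6.40 and 2.58 FPKM (1.05) and the EGF receptor ligand HBEGF at 35.6 and 17.5 FPKM (0.98), just short of 2-fold. Of the ADAMTS substrates and the enzymes that glycosylate ADAMTS proteins, 5 of 13 were compared, 1 was higher and 0 lower. The collagen gene COL1A1 was at 3.67 FPKM in siYBX1 and 0.351 FPKM in siNC (1.79), the fibrillin gene FBN1 at 2.74 and 1.22 FPKM (0.76), POFUT2 at 7.21 and 4.87 FPKM (0.48) and B3GLCT at 2.98 and 3.42 FPKM (-0.15). With a pseudocount of 5 COL1A1 had a difference of 0.70 and 0 of this list were higher, and with a pseudocount of 0.1 FBN1 (1.11) was higher too. COL1A1 was under 1 FPKM in siNC, so it passed the minimum mean only through siYBX1, the library where it was higher. It is also one of the fibroblast markers given above. VCAN and ACAN, the genes of the proteoglycans that ADAMTS9 cuts, were in neither table.

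Of 17 transcription factor genes whose proteins bind metalloproteinase promoters, 15 were compared. Of these, 5 (33.3%) were higher and 1 was lower, and the median difference was 0.37. With the same summed FPKM in both libraries the number higher was 2, JUNB and CEBPB, while ETS1, ETV4 and NFKB1 were at 0.91 to 0.94. With a pseudocount of 5 it was 3. JUNB was at 31.0 FPKM in siYBX1 and 6.07 FPKM in siNC (2.18), CEBPB at 40.6 and 11.5 FPKM (1.74) and ETV4 at 20.4 and 9.12 FPKM (1.08). The lower one was FOSL1, which encodes the AP-1 subunit FRA-1, at 187 FPKM in siYBX1 and 531 FPKM in siNC (-1.50). The list held 2 AP-1 genes with large differences of opposite sign, JUNB and FOSL1.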

How the data were processed

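For either library the authors deposited FPKM per gene, per the file headers, with identifiers and symbols. Tools named in the submitters' processing notes, with no role or order, are StringTie 1.3.3, HISAT2 2.1.0 and cutadapt 1.17, and the build is GRCh37. No source used here gives the annotation release, the strand setting or the rule by which genes were listed. Without counts no interval or floor was computed.

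The siNC table runs in identifier order over 11759 rows and then starts again for 1258 rows, all under 0.5 FPKM; the siYBX1 table has no such rows. MMP2 and ADAMTS17 are among them. A gene missing from 1 table was therefore not read as lower.

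Differences were log2(FPKM + 1), siYBX1 minus siNC, over genes in both tables with a mean of at least 1 FPKM, called from 1 (2-fold). The call step was tested on simulated data, with planted changes larger than 2-fold and a noise level that was set. That checks the code and says nothing of the error of the calls in these libraries. The 9 alternatives were pseudocounts of 0.1 and 5, 2 scalings, centring, no filter, a mean of at least 5 FPKM, missing genes as 0, and removal of a trend on log2 length and GC content (B-splines, 5 degrees of freedom, statsmodels 0.14.6). Length, GC content and overlaps came from GENCODE 29 on GRCh38. Every compared member was named, and lower or singly listed members by their values. Per list, up to 4 compared genes with the largest absolute difference were named. ETS1, NFKB1, VCAN and ACAN fall outside this rule and were named after their values were seen. Other names are stated as chosen after their values were seen. Members, lists and enzyme to inhibitor ratios were chosen with earlier results of these data known.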

Additional observations from a re-analysis of the deposited data

How the results depend on the processing

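No paired analysis was possible because each group holds 1 library, and none could be left out. Over the 9 alternatives the number of members at least 2-fold higher was 5 or 6. It was 6 with a pseudocount of 0.1 (10.4% of all compared genes higher), which added MMP15. With missing genes taken as 0 (7.31% of all compared genes higher) it was also 6, which added MMP9. MMP9 was listed in siYBX1 only, at 2.05 FPKM. It passed the minimum mean through that library alone, and its call follows from the 0 put in for siNC. The number lower was 2 with a pseudocount of 0.1 (8.77% of all compared genes), ADAM22 and ADAMTSL1, and 0 in the others. Their deposited ratios of siNC over siYBX1 were 2.16 and 2.11, and that of siYBX1 over siNC for MMP15 was 2.31. An added 1 FPKM shrinks each of these below 2-fold. The median of the members was 0.16 with a pseudocount of 5, which shrinks all differences, and between 0.34 and 0.60 in the others. YBX1 lay between -4.26 and -3.92. Of 183 member values, 180 kept their side of the 2-fold line, 3 moved past it and 0 changed sign from a called value. Settings that change only the filter or the missing genes leave the value of a compared member as it was. Those values could not move, and scaling to the same upper quartile or centring on the median moved values only slightly. The tally is therefore mostly fixed by the choice of settings. Of the lists of other genes, the number higher depended on the setting where calls lay near 2-fold. The share of all compared genes higher moved too, to 5.40% with the same summed FPKM and 2.98% with a pseudocount of 5. It was 10.4% with a pseudocount of 0.1, 6.24% with the trend removed and 8.58% with a mean of at least 5 FPKM, against 7.20%. Transcription factors had 2 with the same summed FPKM and 3 with a pseudocount of 5, against 5. With the trend removed they had 4, with ETV4 at 0.94. Partners of ADAMs had 0 with the same summed FPKM and with a pseudocount of 5, against 1. Shed proteins had 7 with a pseudocount of 0.1, against 3. They had 2 with the same summed FPKM, a pseudocount of 5 or a mean of at least 5 FPKM. With the trend removed they had 3, with TGFA (1.01) past 2-fold in place of TNFRSF1B (0.96). ADAMTS substrates had 2 with a pseudocount of 0.1 and after removal of the trend on length and GC content. They had 0 with a pseudocount of 5 and with a mean of at least 5 FPKM, against 1. Other inhibitors had 1 lower with missing genes taken as 0 (5.93% of all compared genes lower), against 0. This was A2M, listed in siNC only, and its call follows from the 0 put in for siYBX1. Removing the trend from the enzyme to inhibitor ratios, an alternative chosen after seeing the data, moved the change of ADAM10 over TIMP1 to -0.14 from -0.81 on the log2 scale. Without counts, no difference can be given a counting error.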

Other observations

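RefSeq holds 71 protein-coding genes named by the same family rule, and 34 were listed in at least 1 table. The share listed was 4 of 4 TIMP, 10 of 23 MMP, 9 of 20 ADAM, 8 of 19 ADAMTS and 3 of 5 ADAMTSL genes. The genes that follow were chosen after their values were seen. TNF, the name-giving substrate of ADAM17, was listed at 0 in siNC and was not listed in siYBX1. The receptors TNFRSF1A and TNFRSF1B, which ADAM17 can shed, were at 20.04 and 6.40 FPKM in siYBX1, against 9.86 and 2.58 FPKM in siNC. The ligand TGFA, another ADAM17 substrate, was at 16.6 FPKM in siYBX1 and 7.91 FPKM in siNC, whereas AREG was at 7.48 and 8.22 FPKM.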
